A study of Caenorhabditis elegans with 44 samples.

Results

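Of the 44 RNA-seq libraries of the series, 8 came from whole young adult Caenorhabditis elegans that had been on auxin plates for 8 h: 4 of the strain HSF-1-AID and 4 of the strain TIR1-only. They were picked by strain, treatment and time as the labels give them. The comparison, the gene lists and the naming rules were chosen with earlier results of these data known. Shares of list members are therefore given as description and not as a test. HSF-1-AID (JTL621) carries hsf-1::aid::gfp on chromosome I, the allele unc-119(ed3) on III and, on IV, the insertion ieSi38, in which the sun-1 promoter drives TIR1::mRuby with the 3′ end of sun-1, next to Cbr-unc-119(+). TIR1-only (CA1199) has the same unc-119(ed3) allele and the same ieSi38 transgene, without the tagged hsf-1. Both groups therefore carried TIR1 and both were on auxin, and they differ by the tag on HSF-1. Each genotype is a single strain, so that the tag and anything else that separates these strains cannot be told apart. Synchronized animals had grown for 51 h before about 120 of them per condition were picked onto the plates. NHS in the titles is taken to mean no heat shock. Whether the replicates were grown separately is not given, so every p-value measures the spread between libraries. The 8 ethanol libraries of the same strains and time serve as the background without auxin, and the 8 auxin libraries of 16 h and 6 of 24 h as the same comparison in other libraries.

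HSF-1 is the transcription factor that drives the heat shock genes, and in unstressed animals it also keeps up the transcription of chaperones that cells use all the time. TIR1 is a plant ubiquitin ligase adapter, and in the presence of auxin it marks proteins that carry the degron tag for destruction by the proteasome. The sun-1 promoter makes TIR1 in the germline, while RNA was taken from whole animals with all their tissues, so the tissue in which a transcript differed was not measured. The Hsp90 and Hsp70 chaperones fold and hold client proteins in the cytosol. They work with co-chaperones that load clients, bridge both machines or set the pace of their ATP cycle. The CCT chaperonin folds newly made actin and tubulin.

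The 8 auxin libraries held 12.5 to 50.7 M reads in the listed genes. The 2 libraries numbered 4 were the deepest, at 44.7 and 50.7 M, and the other 6 held at most 26.9 M. The share of rRNA genes in them was 1.70% to 12.5%. Over all 16 libraries of 8 h, the 4 numbered 4 stood apart, with 44.7 to 50.7 M reads and 1.26% to 2.44% rRNA, against 12.5 to 26.9 M and 5.26% to 31.4% in the other 12. Across genes, the log2 values of replicates correlated at 0.965 to 0.989 within TIR1-only on auxin and at 0.980 to 0.994 within HSF-1-AID on auxin. The first principal component over all 16 libraries of 8 h took 33.6% of the variance and did not separate the groups. Levels are given in CPM, reads scaled by library size, and differences are HSF-1-AID minus TIR1-only on the deposited log2 scale. Genes with at least 1 CPM in at least 4 libraries were tested with limma, 10932 in all. A gene is called if its adjusted p (Benjamini-Hochberg over all tested genes) is under 0.05.

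The transcript of hsf-1 itself (WBGene00002004; build WBcel235, chromosome I, 11953507 to 11963085) was not called. It stood at 54.2, 45.1, 46.6 and 41.6 CPM in the 4 HSF-1-AID libraries on auxin and at 58.3, 49.3, 57.7 and 60.02 CPM in the 4 TIR1-only libraries. The ranges overlapped. The difference was -0.27 (95% interval -0.53 to -0.0046, limma adjusted p = 0.997). Auxin acts on the HSF-1 protein, so the level of this transcript does not show how far the factor was degraded.

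After 8 h on auxin, 8 of the 10932 genes differed between the strains (0.0732%), and all 8 were lower in HSF-1-AID, against 48.6% of all tested genes with a negative difference. They were hsp-90, cTel55X.1, dnj-13, fkb-6, sti-1, hsp-1, H11L12.1 and dnj-12. Of these, 6 were cytosolic chaperones or co-chaperones of the Hsp90 and Hsp70 machines. For cTel55X.1 and H11L12.1 the HSF-1-AID libraries were lower without overlap on ethanol too. As cTel55X.1 met the minimum of 1 CPM only through TIR1-only, the filter favoured a lower estimate for it. In the higher direction 0 genes were called by limma (0%), 206 had an unadjusted p under 0.05 (1.88%), and the smallest adjusted p of a higher gene was 0.286. In the lower direction 178 had an unadjusted p under 0.05 (1.63%). The median difference over all tested genes was 0.0047, with a median SE of 0.16. The calls of hsp-90 and cTel55X.1 were kept without any 1 of the 16 libraries. The count fell to 2 without HSF-1-AID auxin replicate 2, without HSF-1-AID auxin replicate 4 or without TIR1-only auxin replicate 3, to 3 without HSF-1-AID auxin replicate 3, to 4 without TIR1-only auxin replicate 2, and to 5 without TIR1-only auxin replicate 1 or 4. Without replicate 4 in all groups 3 genes were called, hsp-90, dnj-13 and cTel55X.1. With limma's library quality weights it was 2988, of which 1180 were lower and 1808 higher. TIR1-only auxin replicate 3 then had a weight of 9.64, against 0.303 to 0.801 for the other libraries of its group.

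**Figure D1:**
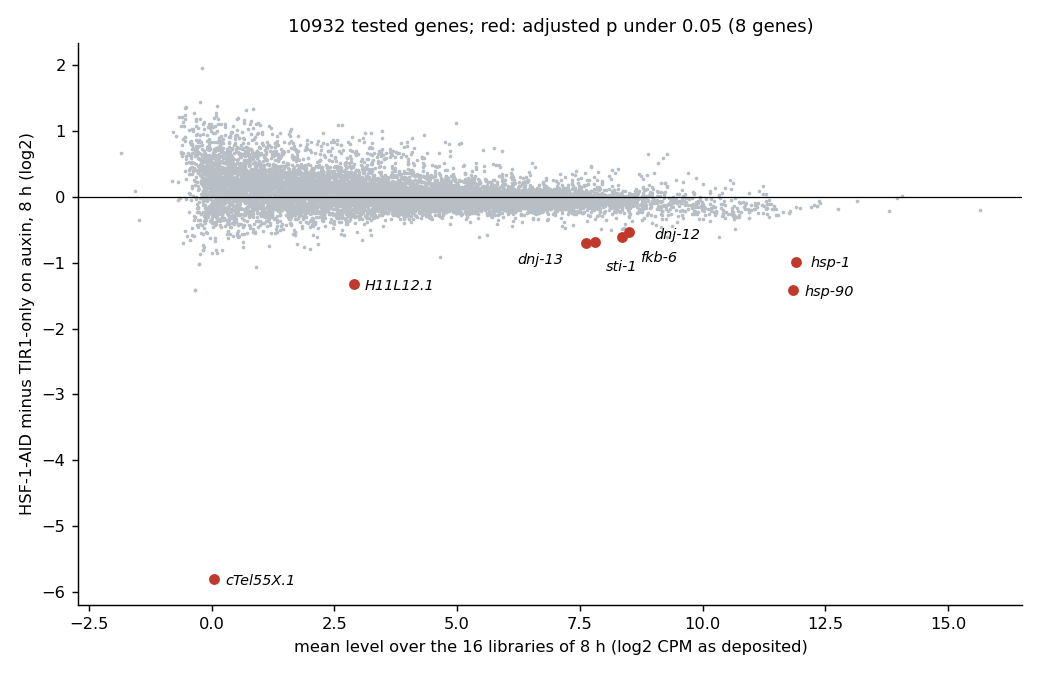
Difference between HSF-1-AID and TIR1-only on auxin at 8 h (vertical axis, log2) against the mean level over the 16 libraries of 8 h (horizontal axis, log2 CPM as deposited). Each grey point is 1 of 10932 tested genes and the 8 red points are the called genes, all below 0, with hsp-90 at -1.42 and cTel55X.1 at -5.81.

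The gene with the smallest p of all tested genes was hsp-90, which encodes the Hsp90 of the cytosol (chromosome V, 14684918 to 14688545, WBGene00000915). Its transcript was at 2107, 1769, 1822 and 1722 CPM in the HSF-1-AID libraries and at 5280, 4980, 4930 and 4606 CPM in the TIR1-only libraries. The highest HSF-1-AID library was thus far below the lowest TIR1-only one. The group means were 1855 ± 173 and 4949 ± 276 CPM (SD, n = 4), so that HSF-1-AID had 37.5% of the TIR1-only level. The difference was -1.42 ± 0.12 (SE, 95% interval -1.67 to -1.16, limma adjusted p = 1.75e-05). It was between -1.48 and -1.32 in all 27 other settings run, and called in each of them.

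Among the Hsp90 co-chaperones, 2 were called. The transcript of sti-1 (chromosome V, 773518 to 774775) was at 182, 154, 166 and 167 CPM in HSF-1-AID and at 314, 258, 262 and 249 CPM in TIR1-only. Its groups did not overlap, and the difference was -0.69 ± 0.10 (SE, limma adjusted p = 0.0101). That of fkb-6, a peptidyl-prolyl isomerase of the FKBP family that binds Hsp90 (chromosome V, 20846158 to 20847727), was at 281, 227, 249 and 238 CPM against 353, 393, 400 and 365 CPM. Again no HSF-1-AID library reached a TIR1-only one, and the difference was -0.605 ± 0.09 (SE, limma adjusted p = 0.0101).

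Of the 9 tested members of the Hsp90 list, hsp-90, sti-1 and fkb-6 were called lower and 0 were called higher, against 0.0732% and 0% of all tested genes. The estimates were negative for 7 of the 9, and the median difference was -0.29 against 0.0047 over all tested genes. The Hsp90 activator ahsa-1 (chromosome V, 15084059 to 15085385) was at 243, 200, 217 and 205 CPM against 273, 351, 323 and 279 CPM, without overlap but short of the call (-0.50, limma adjusted p = 0.16). The client-loading factor cdc-37 differed by -0.28 and the p23 homologue daf-41 by -0.29. The muscle myosin chaperone unc-45, the ubiquitin ligase chn-1 and the phosphatase pph-5 lay between -0.07 and 0.05, with the smallest adjusted p of these 5 at 0.997. In the list, 5 of 9 had an unadjusted p under 0.05 in the lower direction, against 1.63% of all tested genes.

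**Figure D2:**
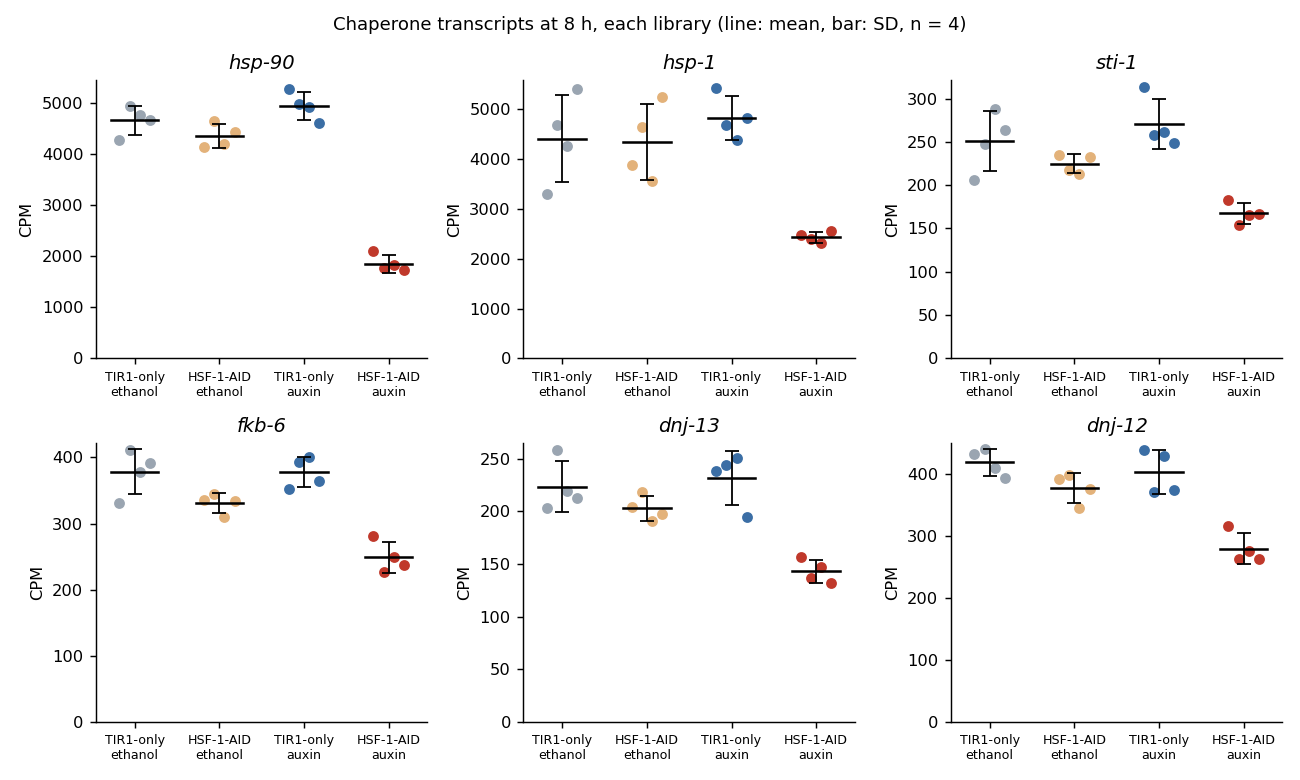
CPM of the 6 called chaperone and co-chaperone transcripts at 8 h in each library of the 4 groups (points; vertical axis from 0, line: mean, bar: SD, n = 4). In every panel the HSF-1-AID libraries on auxin lie below the TIR1-only libraries on auxin, as for hsp-90 with 1722 to 2107 against 4606 to 5280 CPM.

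The constitutive cytosolic Hsp70, hsp-1 (WBGene00002005, chromosome IV, 17278959 to 17281330), was at 2475, 2390, 2306 and 2551 CPM in HSF-1-AID and at 5435, 4676, 4376 and 4817 CPM in TIR1-only. The HSF-1-AID libraries lay close together and all below the TIR1-only ones, at 50.4% of their mean. The difference was -0.99 ± 0.16 (SE, limma adjusted p = 0.0275). J-domain proteins (Hsp40s) deliver clients to Hsp70 and trigger its ATP hydrolysis. The transcript of dnj-13 (chromosome II, 11545701 to 11547360) was at 156, 137, 147 and 132 CPM against 239, 244, 251 and 194 CPM, with a difference of -0.69 ± 0.10 (SE, limma adjusted p = 0.00858). That of dnj-12 (chromosome I, 14756904 to 14758790) was at 315, 262, 276 and 262 CPM against 438, 371, 428 and 373 CPM, with a difference of -0.53 ± 0.09 (SE, limma adjusted p = 0.0295). Neither gene had overlapping groups.

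Of the 9 tested members of the Hsp70 list, hsp-1, dnj-13 and dnj-12 were called lower (0.0732% of all tested genes) and 0 were called higher. The estimates were negative for 7 of the 9, and the median difference was -0.40. Another Hsp40, dnj-19, was at 314, 269, 287 and 272 CPM against 378, 379, 396 and 357 CPM (-0.40, limma adjusted p = 0.16). The nucleotide exchange factor hsp-110 differed by -0.44, the Hsp70-interacting protein hip-1 by -0.35 and the exchange factor bag-1 by -0.19, each with an adjusted p of 0.997. For dnj-19, hsp-110 and hip-1 the groups did not overlap, as for 1.66% of all tested genes in this direction. The heat-inducible Hsp70 genes F44E5.4 and F44E5.5 had an estimate of 0.62 each, and for F44E5.4 the HSF-1-AID libraries ranged from 1.02 to 7.66 CPM around TIR1-only libraries at 1.93 to 2.42 CPM. These neighbours have nearly the same values and may share reads.

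Leaving out any 1 of the 8 auxin libraries ended the call of hsp-1 (limma adjusted p at most 0.161). That of dnj-12 ended without any of them except HSF-1-AID replicate 1 (at most 0.215), and without any 1 of 4 ethanol libraries (at most 0.0549). The calls of dnj-13, fkb-6 and dnj-12 were also lost when the library size left out rRNA genes or was the plain total of reads. With the plain total the median difference of all genes was 0.10, and 3 genes were called (hsp-90, sti-1 and cTel55X.1).

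Of the 8 subunits of the CCT chaperonin 0 were called by limma on auxin, although all 8 had negative estimates, from -0.61 to -0.22. The median was -0.43, 7 of 8 had an unadjusted p under 0.05 in this direction (1.63% of all tested genes), and for 4 the groups did not overlap (1.66%). The 8 estimates were negative under each scaling tried. The largest difference was that of cct-5 (chromosome III, 4499188 to 4508114), at 529, 451, 480 and 414 CPM against 822, 692, 731 and 617 CPM (-0.61, limma adjusted p = 0.0955). The ranges of cct-1 (chromosome II, 8185443 to 8187601), at 431 to 554 against 596 to 690 CPM, were also apart (-0.46, adjusted p = 0.182, and 0.0405 without HSF-1-AID auxin replicate 1). The differences of cct-2 and cct-4 were -0.42 and -0.39, each with an adjusted p of 0.846. All 8 subunits were among the 1094 tested genes with the highest mean log2 CPM, where 72.3% of estimates were negative. The shares of all tested genes given here are not matched for level. Of 77 tested cytosolic ribosomal protein genes, 76 also had negative estimates (median -0.18). Among those 77, 6 were lower without overlap and 1 had an unadjusted p under 0.05 in the lower direction.

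Prefoldin hands unfolded actin and tubulin to CCT. Of its 6 subunits 0 were called by limma, and the median was -0.16. An unadjusted p under 0.05 in the lower direction was found for 1, against 1.63% of all tested genes. Its largest estimate was that of pfd-2, at 22.2 ± 0.58 against 27.7 ± 2.17 CPM (SD, n = 4, -0.31, limma adjusted p = 0.997). Those of pfd-5, pfd-3 and pfd-1 were -0.19, -0.18 and -0.14. Of the tubulins and actins that these machines fold, 11 were tested, 0 were called, and 1 had an unadjusted p under 0.05. This was act-2, an actin gene (chromosome V, 11076777 to 11078154), at 1009, 997, 958 and 1061 CPM against 1832, 1361, 1435 and 1521 CPM. Its groups did not overlap (-0.60, limma adjusted p = 0.337), nor did those of the alpha-tubulins tba-1 (-0.26) and tba-2 (-0.23), each with an adjusted p of 0.997. Lower groups without overlap were thus found for 3 of the 11, against 1.66% of all tested genes. These 3 were among the 1094 tested genes with the highest mean log2 CPM, where 72.3% of estimates were negative. The share of all tested genes is not matched for level. The near-identical act-1 and act-3 differed by 0.07 each. How reads of these copies were divided is not given in the sources used here.

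The small heat shock proteins bind unfolding proteins, and the levels of their transcripts at 8 h differed widely. The most abundant tested member, sip-1, averaged 1181 CPM in HSF-1-AID and 1461 CPM in TIR1-only on auxin (-0.27, limma adjusted p = 0.997). Of 16 listed genes 10 reached the minimum level, and 0 were called by limma on auxin. An unadjusted p under 0.05 in the lower direction was found for 4, against 1.63% of all tested genes. Those 4 were the paired copies of hsp-16.48 and of hsp-16.1 on chromosome V. The 2 copies of each carried identical values in all libraries. Their HSF-1-AID means were 0.38 CPM for hsp-16.48 and 0.52 CPM for hsp-16.1 on auxin, and 0.40 and 0.46 CPM on ethanol. They met the minimum of 1 CPM in 4 libraries only through TIR1-only, so the filter favoured a lower estimate in HSF-1-AID. For hsp-16.48 (WBGene00002019, 9088131 to 9088617) the HSF-1-AID libraries held 0.283, 0.501, 0.308 and 0.427 CPM on auxin and the TIR1-only libraries 1.0, 2.11, 0.922 and 0.792 CPM. The groups did not overlap (-1.41, limma adjusted p = 0.182). On ethanol the strains were apart in the same direction, at 0.398 ± 0.0875 against 1.5 ± 0.293 CPM (SD, n = 4, -1.73, limma adjusted p = 0.105), and both copies were called there when TIR1-only auxin replicate 2 was left out of the fit. The differences of hsp-16.1 were -1.02 on auxin and -1.55 on ethanol. For the list as a whole the median was -0.21 on auxin and -0.38 on ethanol.

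On ethanol 1 of the 10932 genes was called between the strains (0.00915%), cTel55X.1, which was lower in HSF-1-AID, and 0 were higher (50 lower and 51 higher at an unadjusted p under 0.05). The 6 chaperone transcripts had small differences there. For hsp-90 the HSF-1-AID libraries were at 4151, 4661, 4197 and 4439 CPM and the TIR1-only libraries at 4272, 4937, 4773 and 4663 CPM (-0.10, 95% interval -0.35 to 0.16). Those of hsp-1, dnj-13, dnj-12, sti-1 and fkb-6 were -0.02, -0.14, -0.15, -0.15 and -0.19, and all 6 had overlapping groups, as against 0.43% of all tested genes that were lower without overlap. All 6 estimates were below 0 on ethanol as well, where 47.9% of all tested genes were, and all 6 intervals included 0.

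Whether the strain difference on auxin differed from that on ethanol was tested directly. It did for hsp-90 (-1.32 ± 0.17 SE, 95% interval -1.69 to -0.96, limma adjusted p = 0.00676), the 1 gene called (0.00915%). That call was lost when replicate 4 was left out of all groups. For hsp-1 the change in the strain difference was -0.97 (unadjusted p = 6.76e-04), for dnj-13 -0.56 (0.001), for sti-1 -0.54 (0.00206), for fkb-6 -0.42 (0.00509) and for dnj-12 -0.38 (0.00869). In limma's test each of these 5 had an adjusted p of 0.974, so that a different effect on auxin was shown for hsp-90 and not for the others. The 6 chaperones were chosen by the strain difference on auxin, which is part of this test, so their unadjusted p tend to be small. Within HSF-1-AID, which uses the same auxin libraries again, the difference of hsp-90 between auxin and ethanol was -1.24 (limma adjusted p = 1.35e-04), and within TIR1-only it was 0.09 (adjusted p = 0.999). Of the 6 chaperones, 3 were called lower on auxin within HSF-1-AID (0.0366% of all tested genes), the other two being hsp-1 (-0.82, adjusted p = 0.0428) and dnj-13 (-0.51, adjusted p = 0.0396). Those of dnj-12, fkb-6 and sti-1 were -0.44, -0.42 and -0.43, with adjusted p of 0.0527, 0.0806 and 0.168.

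**Figure D3:**
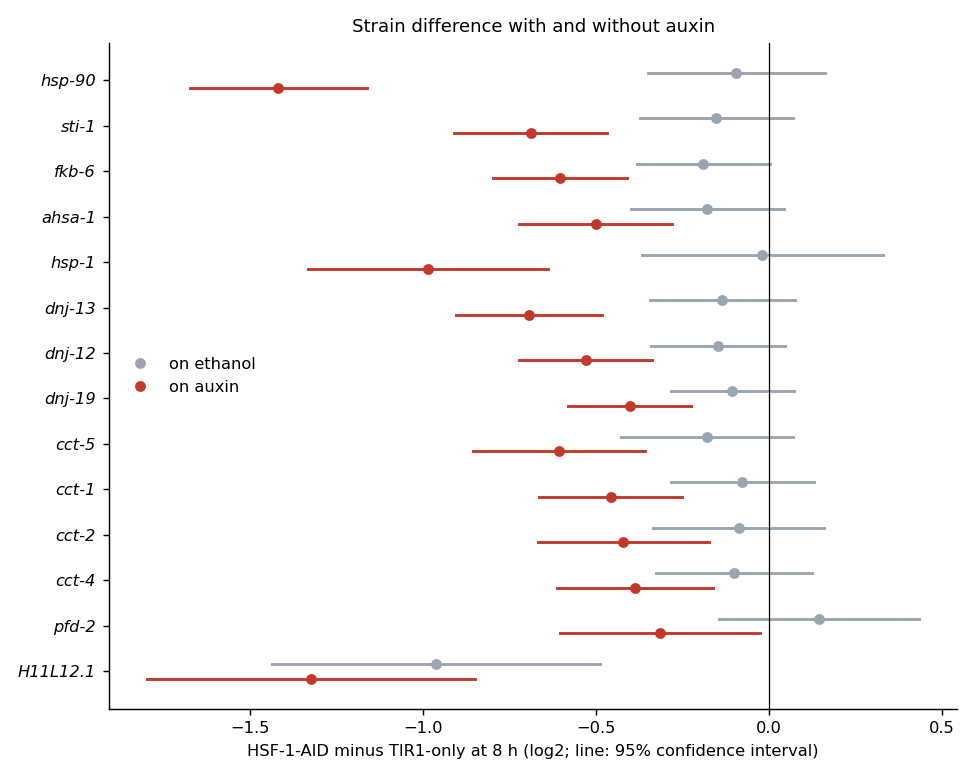
HSF-1-AID minus TIR1-only at 8 h (horizontal axis, log2; line: 95% confidence interval) on auxin (red) and on ethanol (grey) for 13 chaperone genes and H11L12.1. The intervals of the 6 called chaperones are apart from 0 on auxin and cover 0 on ethanol, while H11L12.1 is below 0 under both, at -1.32 and -0.96. These 6 were chosen by their calls on auxin, and the direct test between the treatments called only hsp-90.

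The other 2 called genes lie 3262 bases apart on chromosome X, and no role is assigned to either here. The transcript of cTel55X.1 (WBGene00007068, 17714961 to 17718726) had 0 reads in HSF-1-AID auxin replicates 1, 2 and 3 and 0.765 CPM in replicate 4, against 9.55, 5.19, 9.26 and 8.60 CPM in TIR1-only. On ethanol it had 0 reads in HSF-1-AID replicates 1, 2 and 3 and 0.817 CPM in replicate 4, against 4.96, 5.68, 8.62 and 9.35 CPM. It was nearly missing in HSF-1-AID under both treatments, and it met the minimum of 1 CPM only through TIR1-only. Pooled over all 4 libraries, HSF-1-AID was at 0.38 CPM and TIR1-only at 8.31 CPM on auxin, a ratio of 21.9 (exact 95% interval 16.12 to 30.5, for counting error only). On ethanol the pooled levels were 0.393 and 7.77 CPM, a ratio of 19.8 (14.3 to 28.02). All HSF-1-AID reads were in the libraries numbered 4, also at 16 h, so each of these ratios rests on 1 HSF-1-AID library. At 24 h, with 3 libraries per group, HSF-1-AID had 0 reads on auxin and on ethanol. With a floor of 3 reads per group it was at least 147-fold and 116-fold below TIR1-only there. The fitted differences at 8 h, which depend on the prior count, were -5.81 on auxin (limma adjusted p = 0.00475) and -5.59 on ethanol (adjusted p = 0.0157). The call on ethanol was lost without any 1 of the 8 ethanol libraries except HSF-1-AID replicate 4.

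The transcript of H11L12.1 (WBGene00019189, 17710285 to 17711698) was at 4.19, 5.41, 3.70 and 5.46 CPM in HSF-1-AID on auxin and at 14.6, 11.6, 9.72 and 11.5 CPM in TIR1-only. The difference was -1.32 (limma adjusted p = 0.0278), lost without any 1 of the 8 auxin libraries. On ethanol its groups did not overlap either, at 4.52, 6.28, 4.09 and 6.33 CPM against 7.41, 12.5, 7.94 and 14.9 CPM (-0.96, adjusted p = 1). The strain difference on auxin minus that on ethanol was -0.22 (95% interval -2.52 to 2.09) for cTel55X.1 and -0.36 (-1.03 to 0.31) for H11L12.1. Of the 6 tested genes within 100 kb of cTel55X.1, the other 4 differed by 0.02 to 0.42 on auxin, with unadjusted p of at least 0.218.

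Chaperones of other compartments had medians near that of all genes at 8 h. Of 15 tested chaperones and folding enzymes of the endoplasmic reticulum 0 were called by limma, and 1 had an unadjusted p under 0.05 (dnj-20, 0.26, in the higher direction). Their median was -0.05, with the BiP homologues hsp-3 and hsp-4 at -0.05 and -0.17, and the median was 0.05 with the library size taken as the total of reads, where that of all tested genes was 0.10. Of 10 mitochondrial chaperones and proteases 0 were called and 0 had an unadjusted p under 0.05, the median was 0.01, and hsp-6, the mitochondrial Hsp70, differed by 0.00. Of 32 proteasome subunits 0 were called and 0 had an unadjusted p under 0.05. Their estimates were negative for 31, with a median of -0.09. With the total of reads as library size 13 were negative and the median was 0.01, against 0.10 for all tested genes.

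At 8 h no germline, sperm or somatic list had a called gene. Of 13 germline markers, 27 oocyte and eggshell genes, 26 DNA replication genes and 30 genes of meiotic pairing and recombination, 0 were called by limma. Their medians were -0.14, -0.18, -0.12 and -0.02. With the total of reads as library size these were -0.04, -0.08, -0.02 and 0.08, against 0.10 for all tested genes. Negative estimates on auxin were found for 13, 27, 24 and 17 of them (48.6% of all tested genes). On ethanol these counts were 2, 2, 4 and 10 (47.9%), with medians of 0.03, 0.11, 0.06 and 0.02. The cause was not tested. On auxin 0, 1, 1 and 0 of them had an unadjusted p under 0.05 in the lower direction (1.63% of all tested genes). The 28 tested major sperm proteins had a median of 0.66, the 18 other sperm genes one of 0.595, the 14 muscle markers one of 0.34 and the 13 neuron markers one of 0.35, all positive under each scaling tried. In these 4 lists 0 genes were called, and 0, 0, 0 and 3 had an unadjusted p under 0.05 in the higher direction (1.88% of all tested genes).

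The summed level of the major sperm proteins was 192 to 567 CPM in HSF-1-AID on auxin (median 511) and 110 to 515 CPM in TIR1-only (median 292), and that of the muscle markers 1530 to 5000 CPM (median 2970) against 1680 to 3050 CPM (median 2350). The neuron markers summed to 171 to 209 CPM (median 194) against 178 to 190 CPM (median 183). The sums overlapped between the groups, and 0 of the markers were without a read in either. The intestine markers summed to 3370 to 4780 against 3850 to 4570 CPM, and the germline markers to 7690 to 9170 against 7740 to 11700 CPM. In RNA of whole animals, fewer cells of a type and less RNA per cell cannot be told apart. The part of these marker levels in the chaperone differences was not tested.

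**Figure D4:**
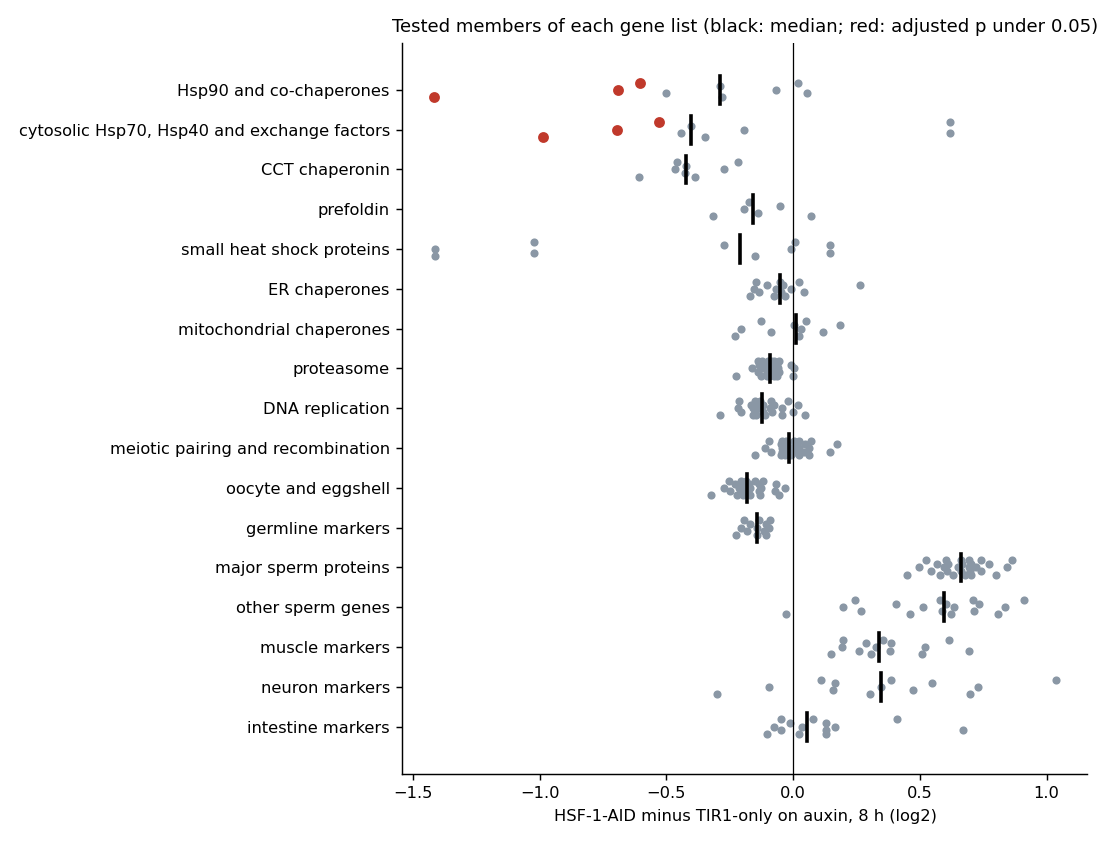
Difference between HSF-1-AID and TIR1-only on auxin at 8 h (horizontal axis, log2) for each tested member of 17 gene lists; black bars are list medians and red points are called genes. The 6 red points are in the Hsp90 and Hsp70 lists, the 8 CCT points lie between -0.61 and -0.22, and the major sperm proteins lie between 0.45 and 0.86.

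The differences on auxin also tilted with the number of reads per gene. Among the 1094 tested genes with the highest mean log2 CPM, 72.3% were lower in HSF-1-AID and the median was -0.06, and among the 1093 with the lowest 26.5% were lower and the median was 0.23. On ethanol the medians were 0.02 and -0.09, in the opposite order. The 6 called chaperones were all among those 1094. Within them, 0 genes had a lower estimate than hsp-90, 1 than hsp-1, 2 than dnj-13, 3 than sti-1, 5 than fkb-6 and 7 than dnj-12.

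The 12 genes ranked 9 to 20 by p were not called (limma adjusted p of 0.0955 to 0.37). Of these, 10 had negative differences. In the Hsp90, Hsp70, CCT or small heat shock lists were 6 of the 12, among them both identical copies of hsp-16.48. Those copies passed the filter on low values only through TIR1-only. The other genes named here were chosen after their values were seen. They include mip-2 (chromosome V, 13669353 to 13671958), which encodes a LOTUS domain protein of germ granules, at 136, 113, 117 and 117 CPM against 178, 148, 174 and 170 CPM (-0.47, limma adjusted p = 0.139). They also include simr-1, a Tudor domain gene of the small RNA pathways (-0.44, adjusted p = 0.281), and dhs-12, a short-chain dehydrogenase gene (-0.44, adjusted p = 0.281). The smallest p of a higher gene was that of acs-7, an acyl-CoA synthetase gene, at 13.4, 16.24, 16.0 and 19.1 CPM against 10.2, 8.87, 11.6 and 10.6 CPM (0.64, limma adjusted p = 0.286).

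The same comparison was made in the libraries of 16 h and 24 h, which were normalized in tables of their own. There the strains differed widely: 4483 of 10142 were called at 16 h (44.2%, with 2085 lower and 2398 higher) and 4017 of 10351 at 24 h (38.8%, with 2093 lower and 1924 higher). All 8 genes called at 8 h were called lower at 16 h, where 20.6% of tested genes were, and 5 of 8 at 24 h, where 20.2% were. Those 5 were hsp-90, hsp-1, dnj-13, sti-1 and cTel55X.1. At 8 h, cTel55X.1 and H11L12.1 were lower in HSF-1-AID on ethanol as well, and cTel55X.1 passed the filter there only through TIR1-only. The median SE was 0.16 at 8 h, 0.09 at 16 h and 0.15 at 24 h.

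Among the 6 chaperones called at 8 h, 6 were called lower at 16 h and 4 at 24 h. For hsp-90 the difference was -1.20 at 16 h and -1.23 at 24 h, next to -1.42 at 8 h. In CPM this was 2371 ± 56.6 against 5452 ± 386 (SD, n = 4) and 2290 ± 177 against 5351 ± 140 (SD, n = 3). Those of hsp-1 were -0.65 and -0.83, those of dnj-13 -0.67 and -0.93 and those of sti-1 -0.66 and -1.04, all called by limma with adjusted p of at most 0.0126. For fkb-6 they were -0.22 (adjusted p = 0.00191) and -0.18 (adjusted p = 0.194), and for dnj-12 -0.18 (adjusted p = 5.84e-04) and -0.02 (adjusted p = 0.9). The intervals of these 2 genes at 16 h, -0.32 to -0.11 and -0.25 to -0.11, did not reach those at 8 h, -0.80 to -0.41 and -0.72 to -0.34. A difference between times was not tested, since the tables were normalized separately. Both genes were also chosen by their calls at 8 h, which favours larger estimates there. The gap between the intervals therefore does not show a change with time.

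For dnj-12 at 24 h the HSF-1-AID libraries were at 472, 421 and 422 CPM and the TIR1-only libraries at 478, 430 and 424 CPM, overlapping throughout. The exchange factor hsp-110, with -0.44 at 8 h, was higher in HSF-1-AID at 16 h (0.27, limma adjusted p = 0.00312) and at 24 h (0.43, adjusted p = 0.00713). The CCT list had 5 of 8 members called lower at 16 h and 5 of 8 at 24 h, against 20.6% and 20.2% of all tested genes. Its medians were -0.25 and -0.29, and cct-5 was among the called members at both times (-0.41 and -0.44). Of the 32 proteasome subunits, for which 0 were called at 8 h, 32 were called higher at 16 h and 28 at 24 h. This held for 23.6% and 18.6% of all tested genes, and the medians of the list were 0.48 and 0.49. Of the 15 genes of the endoplasmic reticulum list 10 were called higher and 0 lower at 16 h, and 6 were called higher and 2 lower at 24 h.

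**Figure D5:**
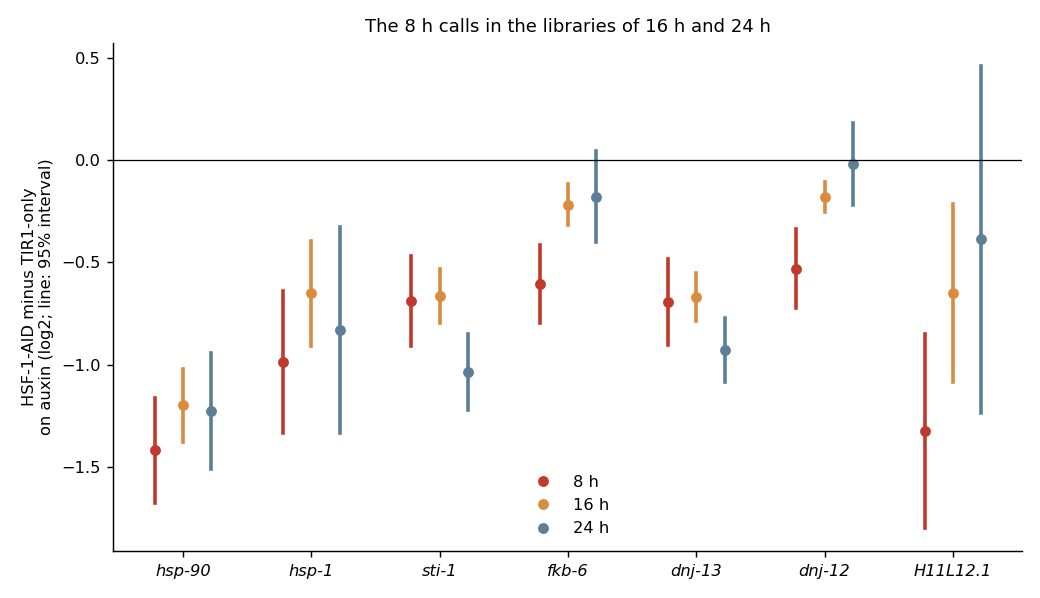
HSF-1-AID minus TIR1-only on auxin (vertical axis, log2; line: 95% confidence interval) at 8 h, 16 h and 24 h for the 6 called chaperones and H11L12.1. For hsp-90 the 3 values lie between -1.42 and -1.20, while those of fkb-6 and dnj-12 are nearer 0 at 16 h and 24 h than at 8 h. All genes shown were chosen by their calls at 8 h, which favours larger estimates at that time.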

How the data were processed

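Per the labels' protocols, poly(A)-enriched RNA was made into directional libraries. Per the submitters' processing notes STAR, featureCounts and edgeR were used, with the builds WBcel235 and ce11; settings, including strand, are not given in the sources used here. The deposited tables hold log2 values of CPM of scaled libraries with a prior count, 1 table per time. Whole reads were recovered from them (100% within 0.05 of a whole number) for depth, CPM and counting intervals. The design foresaw count tests as alternatives, which were not run on the deposited log2 values. All libraries of a time were fitted together (limma 3.58.1, R 4.3.3, trend on, two-sided), with 12, 12 and 8 residual degrees of freedom at 8 h, 16 h and 24 h, and at 24 h with 1 CPM in at least 3 libraries. The script was tested on simulated data. Of 10974 listed genes 10969 were matched by ID to an Ensembl WBcel235 annotation. No replicates were copies (chi-square per gene at least 31 over 24 pairs), and 46 tested genes had the same reads as another. The comparison, lists and rules were chosen with earlier results of these data known. The rule named hsf-1, the called genes and the 4 members of each chaperone list with the smallest p; other genes were named after their values were seen. Of the called genes, hsp-90, fkb-6 and dnj-12 share 4, 26 and 15 exon bases with a gene on the opposite strand.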

Additional observations from a re-analysis of the deposited data

Results flagged for a closer look

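Among the named genes, 92 groups of 4 libraries at 8 h were examined for a library far from the others, and 6 were found, where chance gives about 1 in 20. The identical copies of hsp-16.48 and of hsp-16.1 were counted separately, and genes share libraries. The count is therefore no test against that rate. The transcript of cTel55X.1 was at 0.765 CPM in HSF-1-AID auxin replicate 4 and at 0.817 CPM in HSF-1-AID ethanol replicate 4, with 0 reads in the other libraries of both groups. After scaling, the libraries numbered 4 held 56.2 M reads on auxin and 47.7 M on ethanol, and the other 3 together 57.1 and 51.4 M. For dnj-19, TIR1-only ethanol replicate 2 was at 419 CPM, above the others at 357 to 366 CPM. For pfd-2, HSF-1-AID ethanol replicate 2 was at 25.5 CPM, below the others at 28.9 to 29.6 CPM. For both copies of hsp-16.48, which carry the same values, TIR1-only auxin replicate 2 was at 2.11 CPM, above the others at 0.792 to 1.0 CPM. The auxin effect on hsp-90 differed between the strains, by -1.32 in log2 (limma adjusted p = 0.00676).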

How the results depend on the processing

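Against 8 genes called between the strains on auxin, of which 6 were in the Hsp90 and Hsp70 lists, 8 were called the same way at 16 h and 5 at 24 h, these 4 counts were 4, 2, 4 and 3 with the auxin libraries fitted alone. They were 5, 3, 5 and 4 with a library size without rRNA genes, 3, 2, 3 and 3 with the total of reads, and 2988, 14, 438 and 645 with library quality weights. Leaving out 1 library, or replicate 4 in all groups, gave 2 to 9, 1 to 6, 2 to 8 and 2 to 6. Without replicate 4 in all groups they were 3, 2, 3 and 3. On ethanol the count was 1, and 0 with the ethanol libraries fitted alone, with a prior count of 0.5 reads or with library quality weights, and 0 to 3 when libraries were left out. The interaction had 1 call, 3 with library quality weights, and 0 to 1 when libraries were left out, with 0 without replicate 4 in all groups. The estimate of pfd-1, -0.14, ranged from -0.31 to 0.0612 when 1 library was left out, and was reversed without TIR1-only auxin replicate 2. TMM scaling, no filter, the prior count of 0.5 reads, voom weights and a robust variance left the 8 calls at 8. The total of reads, voom and robust settings, and the count in the Hsp90 and Hsp70 lists, were added after the data were seen. The cause of these changes was not tested. The planned edgeR and DESeq2 fits were not run. With the replicate number as a block 9 genes were called on auxin, cct-5 added, and 8 of them were called at 24 h under the same block. Libraries with the same number correlated at -0.148, -0.267, 0.00512 and 0.575 in their deviations. Not every pair was over 0.1, so the numbers were not taken to pair the libraries, although those numbered 4, which also stood apart in depth and rRNA, had the highest correlation. Not every library correlated best with its own number.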
